A study of Mus musculus with 14 samples.

Results

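Mouse embryonic stem cells (ESC) labelled TKO were compared with wild-type (WT) ESC by gene expression microarray, 3 arrays against 3, which are 6 of the 14 arrays of the series. They were chosen by their titles, and no measured value was used to choose them. The WT ESC were the lines B21, J1 and R1, and the TKO ESC were the lines 7-4-1, Dutch and Ta1-12, all unpaired. TKO is not spelled out in the labels. Following the series title and common usage it was taken to mean loss of all 3 Rb family genes, Rb1, Rbl1 and Rbl2. The other 8 arrays were embryoid bodies (EB), aggregates in which ESC differentiate, 3 of WT and 5 of TKO lines. The series text calls the arrays of a group biological replicates, and each group joined different lines with 1 array per line. Genetic background, passage, culture on feeder cells, the way each line was derived and the alleles deleted are not given in the sources used here. Throughout, values of single arrays are intensities, given in the order B21, J1, R1 for WT ESC and 7-4-1, Dutch, Ta1-12 for TKO ESC.

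Rb1, Rbl1 (p107) and Rbl2 (p130) encode the pocket proteins, which bind E2F transcription factors and hold back genes of DNA replication until cyclin-dependent kinases phosphorylate them. In ESC these kinases are active through most of the cell cycle, the G1 phase is short, and much of the pocket protein is phosphorylated. The series title asks about cell cycle exit and differentiation without the Rb family, and the ESC are the starting state of that question.

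The 6 ESC arrays had median intensities of 83.2 to 89.3, and each placed 27.8% to 29.0% of probe sets under an intensity of 32, the floor applied before taking log2. All 6 had high signal of the ESC genes Pou5f1 (11681, 10972 and 9879.8; 11053, 11814 and 12950), Nanog (10947, 7894.5 and 6331; 7931, 8765 and 7474) and Sox2 (12550, 12116 and 10070; 12836, 12694 and 12078). Across genes, WT ESC B21 correlated with the TKO ESC arrays at 0.971 to 0.981, but with WT ESC J1 at 0.961 and R1 at 0.944, while J1 and R1 correlated at 0.985. WT ESC B21 therefore stood apart from the other WT arrays, and the values of gene lists that turn on it are given with and without it. Where leaving out another array moved the median of a list by more than 1.5 times, or turned its sign, that array is named too or the range given.

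Of the targeted genes, Rbl1 signal was low in 1 of the 3 arrays labelled TKO, intermediate in a second and at the WT level in the third. Rbl1 intensity was 694, 462 and 356 in WT ESC and 24.5, 250.3 and 493 in TKO ESC. A second Rbl1 probe set gave 338.7, 413 and 296.7 in WT ESC and 36.6, 88.2 and 328.2 in TKO ESC, the same order of TKO lines. The array labelled TKO ESC Ta1-12 lay inside the WT range at both probe sets. The log2 difference, TKO minus WT, was -1.62 ± 0.91 (SE, n = 3 and 3; limma adjusted p = 0.733). Rb1 intensity was 636, 138 and 791 in WT ESC and 197, 607 and 116 in TKO ESC, so that the groups overlapped and WT ESC J1 lay lower than 2 of the TKO arrays (log2 difference -0.78 ± 0.80, adjusted p = 0.862). Rbl2 intensity was 661, 562 and 411 in WT ESC and 799.8, 658 and 843 in TKO ESC, a log2 difference of 0.51 ± 0.21 (adjusted p = 0.691), with an overlap between WT ESC B21 and TKO ESC Dutch. In EB, the first Rbl1 probe set gave 586.3, 1089.6 and 493 in WT B21, J1 and R1. Among TKO EB it gave 31.7 in 2-55-2, 15.9 in 14-14-4, 38.3 in 7-4-1, 377 in Dutch and 1095.9 in Ta1-12. The Rbl1 signal of Ta1-12 was thus not low at either stage, and the cause was not tested. The sources used here do not say where the probes lie relative to the deleted parts, and signal from outside a deleted part is no check of the label. All directions below include the array labelled TKO ESC Ta1-12.

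**Figure D1:**
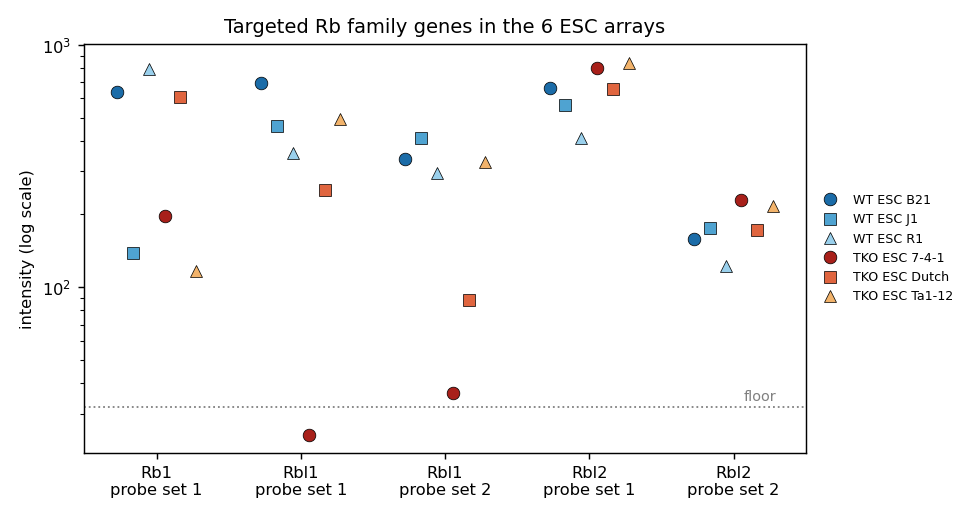
Intensity (log scale) of Rb1, Rbl1 and Rbl2 probe sets in the 6 ESC arrays, 1 point per array, with the floor of 32 as a dotted line. At both Rbl1 probe sets TKO ESC 7-4-1 was lowest, Dutch intermediate and Ta1-12 among the WT ESC arrays, while the 2 groups overlapped at Rb1.

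No gene passed the test between TKO ESC and WT ESC. Of 12905 genes tested, 0 (0.00%) had a limma adjusted p under 0.05, and 929 (7.20%) had an unadjusted p under 0.05, of which 603 (4.67%) were lower and 326 (2.53%) higher in TKO ESC. The median log2 difference over all genes was -0.03, and 44.4% of genes lay above 0. The smallest adjusted p was 0.0900, for Tnfrsf19. Differences of over 2-fold did occur, but most crossed the spread between lines: 308 genes had group means at least 2-fold apart, and at 182 of them the groups overlapped. The 126 genes without overlap comprised 97 lower (0.752% of genes tested) and 29 higher (0.225%) in TKO ESC. The genes described next are the 12 in each direction with the smallest unadjusted p among these. Since no gene passed, they are described as lower or higher with their values, and their adjusted p ran from 0.0900 to 0.612.

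The 12 leading lower genes included receptors and signalling proteins. Tnfrsf19, a receptor of the tumour necrosis factor family also called Troy, had an intensity of 535, 533 and 492 in WT ESC and 121, 150.0 and 153 in TKO ESC, with a log2 difference of -1.89 ± 0.17 (SE). The 3 WT arrays lay close together and every TKO array was at least 2-fold below every WT array, which with values raised to the floor held elsewhere only for Ptprm. The receptor tyrosine phosphatase Ptprm had 79.5, 104 and 173 in WT ESC and 23.3, 32.5 and 33.7 in TKO ESC (-1.79 ± 0.30). All 3 TKO arrays lay near or under the floor, so the fold of Ptprm is understated. Susd4, which encodes a sushi-domain membrane protein, had 592, 475 and 515 in WT ESC and 291, 229 and 235 in TKO ESC (-1.07 ± 0.18). Arrb1, the signalling adaptor beta-arrestin 1, had 306, 375 and 398 in WT ESC and 164, 209 and 136 in TKO ESC (-1.10 ± 0.22). At both genes the highest TKO array lay below the lowest WT array. The Ras-association gene Rassf6 had 177, 200.2 and 180.0 in WT ESC and 79.5, 99.6 and 65.0 in TKO ESC (-1.21 ± 0.21). The monoamine oxidase gene Maob had 104, 126 and 107 in WT ESC and 34.3, 61.4 and 25.9 in TKO ESC (-1.46 ± 0.29). The other 6 were dim in all 6 arrays, the highest intensity being 184, of Rimkla in R1. These were Cpne2 (a copine, -1.30 ± 0.23), Col9a2 (a chain of collagen IX, -1.17 ± 0.22), Rbm24 (an RNA-binding protein, -1.33 ± 0.25), Eml1 (a microtubule-associated protein, -1.04 ± 0.22, with all TKO arrays under the floor), Adgrg1 (an adhesion G protein-coupled receptor, -1.01 ± 0.21) and Rimkla (a ligase that makes N-acetylaspartylglutamate, -1.30 ± 0.27).

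The 12 leading higher genes held known ESC genes and the activator E2f2. Gbx2, a homeobox gene downstream of LIF and Stat3 in ESC, had an intensity of 105, 155 and 105 in WT ESC and 822, 304 and 1064 in TKO ESC (2.43 ± 0.45). It was the largest difference above 0 among all genes tested, and the TKO lines themselves spread more than 3-fold, with Dutch lowest. Nr0b1 (Dax1), an orphan nuclear receptor of the pluripotency network, had 1507, 2048 and 1371 in WT ESC and 3131, 2685.5 and 4065 in TKO ESC (1.00 ± 0.21). Hmces, which encodes a protein that binds abasic sites in single-stranded DNA, had 1768, 1729 and 1872.5 in WT ESC and 3464, 3510.4 and 4617 in TKO ESC (1.10 ± 0.14). The 3 WT arrays of Hmces lay close together, and this gene had the smallest p among those higher in TKO ESC (adjusted p = 0.427). Spry4, a feedback inhibitor of FGF and MAP kinase signalling, had 695, 559 and 293 in WT ESC and 1236, 1283 and 2110.3 in TKO ESC (1.63 ± 0.35). All 4 of its probe sets were higher in TKO ESC, by 0.64 to 1.63 on the log2 scale. E2f2, an activating E2F factor, had 224, 227 and 197 in WT ESC and 378, 408 and 625 in TKO ESC (1.09 ± 0.22). A second E2f2 probe set gave 95.3, 115.4 and 82.5 in WT ESC and 108.6, 167.6 and 230.1 in TKO ESC, where TKO ESC 7-4-1 lay below WT ESC J1. Zdbf2, an imprinted gene, had 249, 551 and 548 in WT ESC and 1115.5, 989 and 1552 in TKO ESC (1.50 ± 0.34). Rasgrp2, an exchange factor for Rap1, had 887, 624 and 526 in WT ESC and 1410.4, 1305 and 1275 in TKO ESC (1.00 ± 0.21). The others were the zinc finger gene Bnc2 (1.18 ± 0.22), the adaptor Dapp1 (1.10 ± 0.22), the oxidase Enox1 (1.31 ± 0.29), and, at intensities of at most 160.3 in every array, Pirt (1.41 ± 0.32) and the sialyltransferase St6galnac2 (1.26 ± 0.23). Of the 24 genes, 12 had further probe sets, and the 15 of these that reached an intensity of 100 on some ESC array had the same sign.

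**Figure D2:**
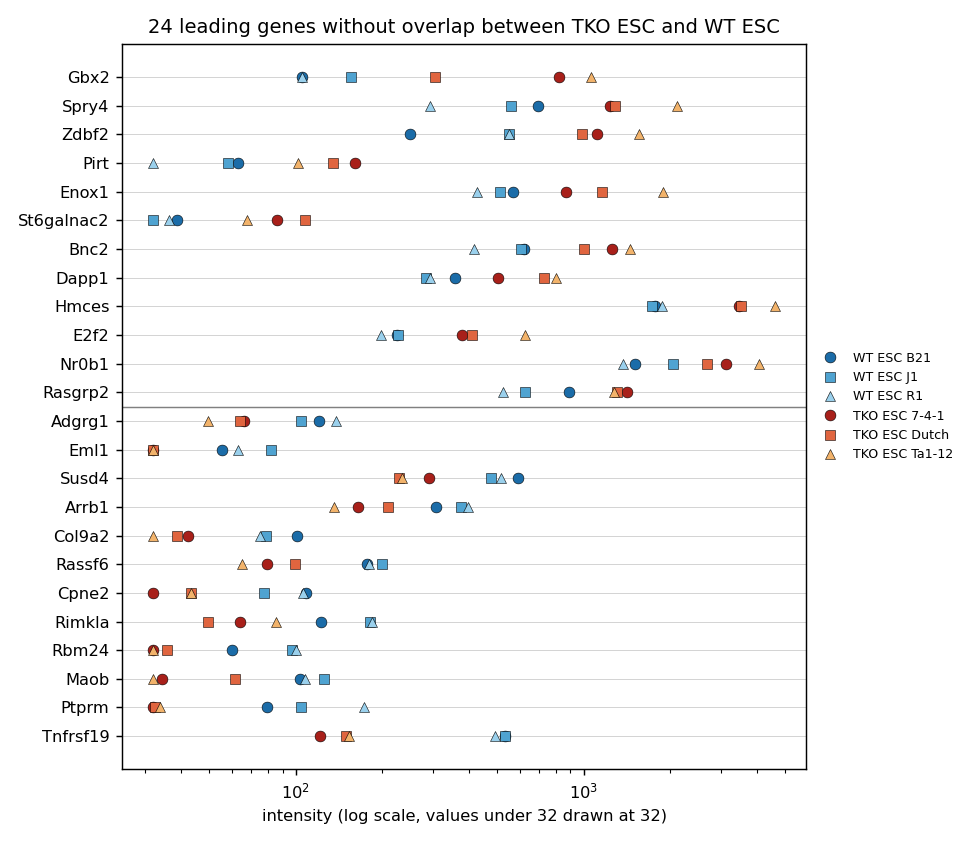
Intensity (log scale, values under 32 drawn at 32) of the 12 leading higher genes (above the line) and the 12 leading lower genes (below it), 1 point per ESC array. Blue points are WT ESC and red to orange points TKO ESC. In every gene the groups are separate, which is how the genes were chosen, and the gap is widest at Tnfrsf19.

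Genes of the cell cycle differed little. Among the 58 tested E2F targets of G1/S and replication, 45 lay above 0 in TKO ESC against 44.4% of all genes, with a median log2 difference of 0.08, and the median of all genes was -0.03. The median was 0.09 without WT ESC B21, 0.03 without TKO ESC 7-4-1 and 0.04 without R1. Of the 58, 0 passed the test, 8 (13.8%) were higher and 0 lower in TKO ESC without overlap, where 4.94% of all genes were higher and 6.93% lower without overlap. The same shares of all genes stand beside the counts without overlap of every list below, and several lists lie near them. The largest was Tyms, thymidylate synthase, with an intensity of 102, 127 and 129 in WT ESC and 201, 187 and 199 in TKO ESC (0.72 ± 0.18; adjusted p = 0.612). The helicase Hells, which takes part in DNA methylation, had 6766, 6271 and 6024 in WT ESC and 8122.5, 6931 and 7118 in TKO ESC (0.22 ± 0.09). The origin recognition subunit Orc6 (0.19 ± 0.08) and the deubiquitinase Usp1 (0.19 ± 0.08) were also without overlap. At Hells, Orc6 and Usp1 the groups were separate, but far less than 2-fold apart. The replicative helicase genes Mcm2 (0.03 ± 0.09), Mcm3 (0.03 ± 0.18), Mcm4 (-0.09 ± 0.07), Mcm6 (-0.09 ± 0.12) and Mcm7 (0.00 ± 0.08) overlapped, while Mcm5 (0.13 ± 0.06) was higher without overlap. Pcna, the replication clamp, had 13926, 14456 and 14082 in WT ESC and 15664, 14316 and 14753 in TKO ESC (0.07 ± 0.05).

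Of the 10 tested E2F and DP factors, 5 lay above 0, and E2f2, E2f4 and Tfdp1 were higher without overlap. Their median of 0.07 was 0.00 without WT ESC B21 and 0.03 without Ta1-12, and 0.12 to 0.15 without any 1 of the other 4 arrays. Tfdp1, the dimerisation partner DP1, had 4879, 4774 and 5135 in WT ESC and 6359, 5769 and 5799 in TKO ESC (0.28 ± 0.08). E2f4, a repressive E2F that works with Rbl1 and Rbl2, had 1065, 910.3 and 838 in WT ESC and 1136, 1110.5 and 1264 in TKO ESC (0.32 ± 0.15). Tfdp1, E2f4, Orc6 and Rbl2 lie on chromosome 8, whose genes as a whole were lower in WT ESC J1 and R1 than in the other arrays. With chromosome medians subtracted their log2 differences were 0.19, 0.24, 0.10 and 0.43. E2f5, also repressive, was lower without overlap (1576, 1895 and 1739 in WT ESC, 1523, 1552 and 1495 in TKO ESC; -0.19 ± 0.12). E2f1 (-0.14 ± 0.14) and E2f3 (0.16 ± 0.14), the other activating factors, overlapped between groups.

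Mitotic genes lay on both sides of 0. Of 44 G2/M genes, 20 lay above 0, with a median log2 difference of -0.04, and 1 was higher and 1 lower without overlap. This median turned to 0.04 when all probe sets of a gene were averaged and to 0.01 without WT ESC J1, and was -0.09 without B21, and -0.02 without R1 or Ta1-12. The kinesin Kif11 was higher (2298, 3242 and 2785 in WT ESC, 4441, 3491 and 3294 in TKO ESC; 0.43 ± 0.17), and securin, Pttg1, was lower (12093, 11200 and 10520 in WT ESC, 9388, 10439 and 8969 in TKO ESC; -0.23 ± 0.08). Plk1 (-0.13 ± 0.08) and Birc5 (0.14 ± 0.09), a mitotic kinase and survivin, overlapped between groups. The 8 G1 cyclins and their kinases had a median of 0.06, with 1, cyclin D3 (Ccnd3, 0.18 ± 0.09), higher without overlap. That median was -0.06 without WT ESC B21, 0.01 without Ta1-12, and 0.13 to 0.18 without J1, R1 or 7-4-1. Ccne1 (0.33 ± 0.23), Cdk2 (0.12 ± 0.11) and Cdk6 (0.25 ± 0.28) overlapped. Of 7 CDK inhibitors, with a median of -0.34, Cdkn2a was higher without overlap. The median was -0.50 without WT ESC B21, but -0.18 to -0.10 without J1, R1, 7-4-1 or Ta1-12. Cdkn2a, the locus of p16INK4a and p19ARF, had 141, 102 and 106 in WT ESC and 183, 202 and 167 in TKO ESC (0.67 ± 0.20; adjusted p = 0.641). The inhibitors Cdkn1a (-0.34 ± 0.25), Cdkn1c (-0.71 ± 0.62) and Cdkn2b (-0.63 ± 0.41) were lower in mean but overlapped. The 35 genes of telomeres and the DNA damage response had a median of 0.06 with 27 above 0 (0.16 without WT ESC B21, 0.10 without Ta1-12 and -0.01 without R1). Fanci (0.43 ± 0.22), Fancm (0.36 ± 0.16) and Nbn (0.26 ± 0.14) were higher and Terf1 (-0.21 ± 0.10) lower without overlap. These were 8.57% and 2.86% of the list, against 4.94% and 6.93% of all genes.

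Promoter sequences show where E2F-type motifs stand in genes named above. The 300 bases of each promoter, 250 before to 50 after the gene start in RefSeq (GRCm38.p6), were searched on both strands for TTTCCCGC, TTTGGCGC, TTTCGCGC and TTTGCCGC. Of 10404 tested genes with a promoter sequence, 4.6% held 1 of these motifs. The share was 43.8% (21 of 48) among the E2F targets and 2.8% (1 of 36) among the G2/M genes, and 4 of 8 E2F and DP factors held one. Of the genes without overlap and at least 2-fold apart it was 14.3% (3 of 21) for those higher and 8.1% (6 of 74) for those lower in TKO ESC. A fit without WT ESC B21 is described below. Of its called genes, the share was 5.6% (2 of 36) for those higher and 3.0% (7 of 237) for those lower. Windows around the motif (capitals) are shown 5′ to 3′ on the gene's strand for 3 genes that were higher without overlap and held a motif, 1 leading gene, 1 DP factor and 1 E2F target: E2f2 (chr4:136172283-136172323, plus strand), Tfdp1 (chr8:13338678-13338745, plus strand) and Hells (chr19:38930898-38930965, plus strand).
E2f2: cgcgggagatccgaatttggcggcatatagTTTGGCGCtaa
Tfdp1: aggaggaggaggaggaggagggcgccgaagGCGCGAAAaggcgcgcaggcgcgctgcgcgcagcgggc
Hells: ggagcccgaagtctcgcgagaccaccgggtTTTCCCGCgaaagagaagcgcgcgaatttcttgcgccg
The Tfdp1 motif is TTTCGCGC read on the other strand. A match is a description of the letters and shows no binding.

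Most genes of pluripotency lay above 0 and most genes of the later primitive ectoderm below 0 in TKO ESC, though none passed the test in the fit of all 6 arrays. Of 32 tested pluripotency genes, 28 lay above 0, with a median log2 difference of 0.29, and 6 (18.8%) were higher and 0 lower without overlap. Their mean log2 intensity was 12.26, 11.96 and 11.52 in WT ESC and 12.13, 12.25 and 12.27 in TKO ESC, so that only J1 and R1 lay below the TKO arrays and B21 lay among them. The median was 0.43 without B21 and 0.13 without R1. Dppa2, an activator of genes first expressed in the early embryo, had 2696, 2766 and 2577 in WT ESC and 3624, 3973 and 5003 in TKO ESC (0.64 ± 0.13). Its partner Dppa4 had 4659, 5641 and 4689 in WT ESC and 6472, 6428 and 6877 in TKO ESC (0.40 ± 0.09). Mycn, a Myc family factor, had 6489, 6577 and 6488 in WT ESC and 8779, 7839 and 8036 in TKO ESC (0.33 ± 0.07). At these 3 genes, unlike the list as a whole, WT ESC B21 lay with J1 and R1. Tet1, which oxidises 5-methylcytosine, had 5868, 5364 and 4038 in WT ESC and 6452, 9240.1 and 8529.9 in TKO ESC (0.67 ± 0.18). The core factors Pou5f1 (0.14 ± 0.08), Sox2 (0.12 ± 0.09) and Nanog (-0.02 ± 0.18) overlapped between groups. The sign of Nanog turned with the scaling of the arrays (0.00 with arrays centred on their median).

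Primitive ectoderm is the epiblast after implantation, which expresses Fgf5 and Nodal pathway genes. Of 15 tested, 11 lay below 0, with a median of -0.29, and 3 (20%) were lower without overlap. The median was -0.63 without WT ESC B21 and -0.14 without J1. Fgf5, the classical marker of this stage, had 54.5, 286 and 493 in WT ESC and 6.85, 30.5 and 20.7 in TKO ESC (-2.63 ± 0.72; adjusted p = 0.612). All TKO arrays were under the floor, and WT ESC B21 lay far below J1 and R1. The tight junction gene Cldn6 had 1112, 3101 and 3497 in WT ESC and 1042, 862 and 1089.5 in TKO ESC (-1.21 ± 0.41). The kinase Pim2 had 780.2, 1553 and 2127.5 in WT ESC and 574, 646 and 602 in TKO ESC (-1.18 ± 0.34). At both genes WT ESC B21 lay just above the TKO arrays. Foxd3, a factor of both ESC and epiblast, went the other way and overlapped (318, 114 and 128 in WT ESC, 274, 328 and 587 in TKO ESC; 1.17 ± 0.45).

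The 26 genes of LIF, FGF and BMP signalling had a median of 0.08, with 4 (15.4%) higher and 1 lower without overlap. The median was -0.03 without WT ESC B21, 0.13 without J1 or 7-4-1, 0.04 without R1 and 0.02 without Dutch. The higher genes without overlap were Spry2, Spry4, Etv4 and Lifr, and the lower one was Smad5 (-0.15 ± 0.14), which transmits BMP signals. The FGF inhibitor Spry2 had 1568, 1479.5 and 1215.5 in WT ESC and 2079, 2148 and 2707 in TKO ESC (0.70 ± 0.16). Etv4, an ETS factor induced by FGF, had 599.5, 253 and 268 in WT ESC and 1133, 616 and 888 in TKO ESC (1.31 ± 0.38), where WT ESC B21 was close to TKO ESC Dutch. Lifr, the receptor of LIF, had 3418, 2666 and 1848 in WT ESC and 4609.5, 4064 and 3866 in TKO ESC (0.70 ± 0.21). Spry1 (-0.50 ± 0.44), another FGF inhibitor, and Id2 (-0.75 ± 0.67), a BMP target, had means below those of WT ESC and overlapped.

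Antigen presentation genes were mostly lower in TKO ESC, and highest in WT ESC R1 and J1. Of 17 genes of MHC class I and the interferon response, 14 lay below 0, with a median of -0.58, and 5 (29.4%) were lower and 0 higher without overlap. The median was -0.85 without WT ESC B21, -0.39 without R1 and -0.98 without the genes of chromosomes 1, 8 and 11, a setting chosen after seeing the data. Psmb8, a subunit of the immunoproteasome, had 66.7, 372 and 748 in WT ESC and 15.8, 39.7 and 13.9 in TKO ESC (-2.94 ± 0.79; adjusted p = 0.612), which was the lowest difference among all genes tested. B2m, the light chain of MHC class I, had 1339, 2132 and 3349.6 in WT ESC and 904, 1122 and 850.5 in TKO ESC (-1.16 ± 0.32). The heavy chain H2-D1 had 698, 1217 and 1874 in WT ESC and 417, 579.9 and 358 in TKO ESC (-1.40 ± 0.36). The peptide transporter Tap1 had 75.0, 247 and 330.1 in WT ESC and 65.4, 62.9 and 50.4 in TKO ESC (-1.63 ± 0.52). In each of these 4 genes R1 was highest, J1 second and WT ESC B21 the lowest of the WT arrays. The chemokine Cxcl10 followed the same order (126, 165 and 616 in WT ESC, 79.5, 106 and 31.0 in TKO ESC; -1.86 ± 0.67). The interferon-induced membrane protein Ifitm3 had a log2 difference of 0.45 ± 0.24.

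Promoters of this list were searched on both strands for GAAA, any 2 bases and GAAA again, the core of interferon response elements. This motif was chosen after the values were seen. It stood in 3.5% of the 10404 promoters, in 46.7% (7 of 15) of the list and in 10.8% (8 of 74) of the genes at least 2-fold lower without overlap. The 8 were B2m, Cldn7, Cxcl10, Gbp7, Kif1a, Pcsk1, Tmc7 and Vldlr. B2m and Cxcl10 belong to the list that led to the motif, so this share is no independent reading. Of the genes higher it stood in 0 of 21, too few genes to tell apart from 3.5%. Of the genes called without WT ESC B21, it stood in 5.5% (13 of 237) of those lower and 2.8% (1 of 36) of those higher. Windows around the motif are shown for B2m (chr2:122147518-122147587, plus strand) and Cxcl10 (chr5:92349063-92349132, minus strand), 2 genes of this list whose values are given above.
B2m: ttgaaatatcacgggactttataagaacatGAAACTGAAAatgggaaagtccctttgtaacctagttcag
Cxcl10: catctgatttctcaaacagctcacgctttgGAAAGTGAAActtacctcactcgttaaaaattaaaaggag
Both hold 1 match, and the letters say nothing of whether a factor was bound in these cells.

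Genes of fibroblasts, which can serve as feeder cells for ESC, had their highest list mean in the same arrays, though not every member followed this order. Of 27 tested, 23 lay below 0, with a median of -0.56, and 5 (18.5%) were lower without overlap. The median was -0.70 without WT ESC B21 and only -0.19 without R1. Their mean log2 intensity was 8.16, 8.82 and 9.26 in WT ESC and 7.82, 8.27 and 8.37 in TKO ESC, and that of the MHC list was 9.32, 10.08 and 10.45 in WT ESC and 9.15, 9.41 and 8.86 in TKO ESC. In both lists R1 was highest and J1 second. The summed intensity of all 35 fibroblast genes on the array ran from 26511 to 55384 in WT ESC and from 25922 to 28986 in TKO ESC, but from 115501 to 329495 in EB. Levels within the list ranged widely in ESC. Col1a1 was at most 191, Col1a2 at most 314, Dcn at most 45.0, and Lum and Postn at most 45.8, with 2 to 9 of the 35 genes per ESC array under the floor. In WT ESC R1, Tagln was at 6488, Cald1 at 6267, Acta2 at 2616 and Thbs1 at 1778, each the highest of the 6 arrays with J1 second. Vim, Fn1 and Sparc, which many cell types express, were above 2348 in all 6 arrays. The collagen gene Col5a1 had 551, 700.3 and 1089 in WT ESC and 218, 426 and 378 in TKO ESC (-1.19 ± 0.33). The protease inhibitor Timp3 had a log2 difference of -1.10 ± 0.32. The surface protein Thy1 had 429.9, 318 and 255 in WT ESC and 177, 200.5 and 152 in TKO ESC (-0.90 ± 0.23). The growth factor receptor Pdgfrb had 284, 258 and 196 in WT ESC and 136, 169 and 117 in TKO ESC (-0.80 ± 0.22). At Thy1 and Pdgfrb the order of the WT arrays was reversed, with B21 highest and R1 lowest. Timp1, Igfbp7, Pdgfra and Dcn were also highest in B21 among the WT arrays. The part of such cells in the differences of the MHC genes was not tested, and in bulk cultures fewer cells of a type and less RNA per cell cannot be told apart.

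Several other lists were lower in TKO ESC on balance. Of 21 p53 targets, 3 lay above 0, with a median of -0.24, and Sesn1 (-0.49 ± 0.20) was lower without overlap. The median was -0.46 without WT ESC B21 and -0.13 without Ta1-12. Pmaip1 (Noxa), which promotes apoptosis, had 652, 1471 and 1314 in WT ESC and 693, 366 and 764 in TKO ESC (-0.90 ± 0.39). The groups overlapped through WT ESC B21, as at Ddit4 (3762, 6492 and 6251 in WT ESC, 3586, 3895 and 2869.8 in TKO ESC; -0.64 ± 0.22). Cyclin G1, Ccng1, had -0.24 ± 0.12. Of 23 apoptosis regulators, with a median of -0.10, 2 were lower and 2 higher without overlap (median -0.17 without WT ESC B21, -0.05 without J1 and -0.02 without R1). Each count was 8.7% of the list, where 6.93% of all genes were lower and 4.94% higher without overlap. Casp8, the initiator caspase of death receptors, was lower without overlap (197, 183 and 273.5 in WT ESC, 119.8, 129.8 and 123 in TKO ESC; -0.79 ± 0.20), and Diablo was higher (0.25 ± 0.14). Bcl2, which restrains apoptosis, overlapped (-1.14 ± 0.65). Of 20 immediate early and stress genes, 14 lay below 0, with a median of -0.27 (-0.34 without WT ESC B21, -0.14 without J1, -0.15 without R1 and -0.17 without Ta1-12). Atf3, a stress-induced factor, had 76.4, 257 and 419 in WT ESC and 73.3, 39.1 and 59.3 in TKO ESC (-1.87 ± 0.60). The AP-1 gene Jun had 159, 645 and 1101.5 in WT ESC and 122, 143 and 209 in TKO ESC (-1.65 ± 0.65), where WT ESC B21 lay among the TKO arrays. Asns, asparagine synthetase, was lower without overlap (-0.30 ± 0.09), and Ier2 overlapped (0.34 ± 0.13).

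**Figure D3:**
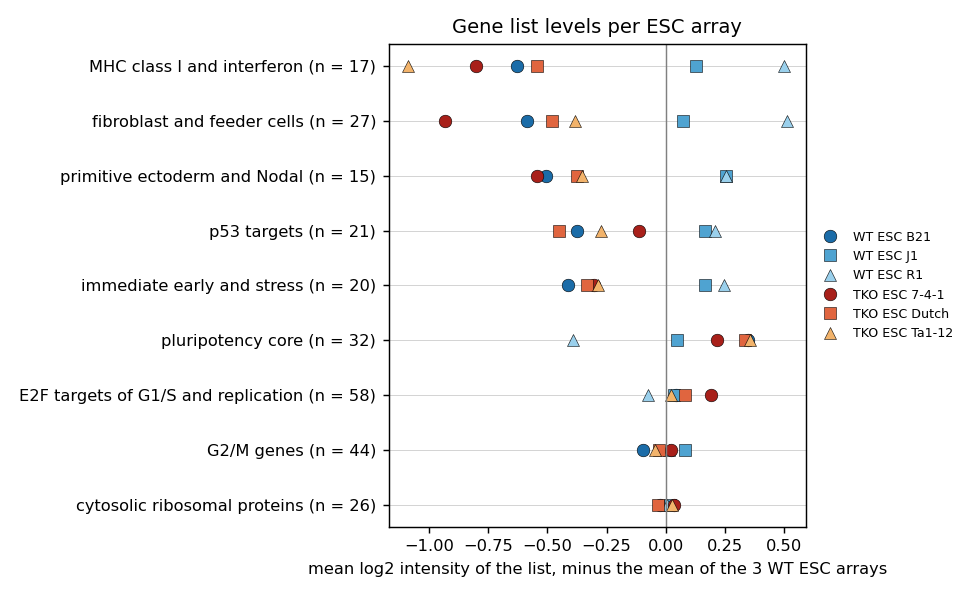
Mean log2 intensity of 9 gene lists in each ESC array, minus the mean of the 3 WT ESC arrays, with the number of genes in brackets. In the MHC, fibroblast, primitive ectoderm and p53 lists WT ESC J1 and R1 lie to the right and WT ESC B21 lies with the TKO arrays, while the E2F, G2/M and ribosomal lists stay near 0.

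Imprinted and germline genes differed gene by gene. Of 33 imprinted genes, 23 lay below 0, with a median of -0.22, and 4 (12.1%) were lower without overlap, against 6.93% of all genes. Plagl1 (Zac1), a zinc finger factor, had 1071, 2670.5 and 3418 in WT ESC and 542, 875 and 386 in TKO ESC (-1.91 ± 0.47; adjusted p = 0.612). Ndn, necdin, had 1239, 1317 and 1387 in WT ESC and 819, 882 and 1057.5 in TKO ESC (-0.52 ± 0.15). Gab1 (0.28 ± 0.10) and Dlk1 (-0.96 ± 0.41) overlapped. The 30 germline genes had a median of 0.10, which was 0.52 without WT ESC B21, 0.16 without Ta1-12, 0.05 without Dutch, 0.03 without J1 and -0.12 without R1, so that both its sign and its size turned on single arrays. Of these genes, the piRNA factor Mael was lower without overlap (2543, 1377 and 1117 in WT ESC, 422, 955 and 977 in TKO ESC; -1.10 ± 0.41), as were the meiotic cohesin Rec8 (-0.72 ± 0.25) and the tubulin Tuba3b (-0.97 ± 0.34). These 3 genes were 10% of the list, against 6.93% of all genes. In contrast to most lists, WT ESC B21 was the highest array at Mael and Rec8. Of 15 genes of DNA methylation, 12 lay above 0, with a median of 0.17 (0.11 without WT ESC B21 and 0.10 without Ta1-12), and Tet1 and Hells were higher without overlap. Tet2 (0.93 ± 0.42) and Zfp57 (0.74 ± 0.31), which protects imprints, overlapped.

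Markers of differentiated lineages were mostly dim. Of 12 trophoblast genes, 10 lay below 0, with a median of -0.37, and the keratin Krt7 (163, 246 and 196 in WT ESC, 76.3, 61.8 and 142 in TKO ESC; -1.18 ± 0.33), Cdx2 (-0.50 ± 0.20) and Ascl2 (-0.48 ± 0.21) were lower without overlap, while Esx1 overlapped (-0.95 ± 0.41). Of 15 genes of cardiac and smooth muscle, with a median of -0.07 that was 0.11 without WT ESC B21, 0.05 without Ta1-12 and -0.32 to -0.11 without any 1 of the other 4, the cardiac actin Actc1 was lower without overlap (57.6, 83.9 and 307 in WT ESC, 28.9, 32.8 and 32.4 in TKO ESC; -1.81 ± 0.57). The smooth muscle genes Tagln (338, 2687 and 6488 in WT ESC, 85.7, 554 and 1078 in TKO ESC; -2.28 ± 1.24) and Cnn1 (-1.79 ± 0.70) were highest in R1 and overlapped, as did Myh6 (-1.02 ± 0.35). Of 14 genes of neural progenitors, with a median of 0.10 (0.17 without WT ESC B21 or 7-4-1, 0.06 without R1, 0.01 without J1 and -0.05 without Dutch), Gbx2 and Neurod1 were higher without overlap. Neurod1, a proneural factor, had 461, 827 and 1092 in WT ESC and 1285, 1312 and 2152.5 in TKO ESC (1.04 ± 0.35), whereas Pax6 (1.04 ± 0.49) and Map2 (-0.93 ± 0.35) overlapped. Genes of parietal and visceral endoderm had a median of 0.00 over 21 genes (-0.17 to 0.11 with 1 array left out) with 0 without overlap, and Lama1 (1.14 ± 0.37), Srgn (1.38 ± 0.90), Fst (-0.94 ± 0.56) and Rbp4 (-0.53 ± 0.35) overlapped. Their mean log2 intensity was 8.115, 8.459 and 8.311 in WT ESC and 9.036, 8.175 and 8.061 in TKO ESC, so that TKO ESC 7-4-1 stood above the others. Dab2 had 199.7, 526.8 and 475.7 in WT ESC and 1433, 171.3 and 158.6 in TKO ESC. Gata6 was at 187.3 in 7-4-1 and at most 71.0 in the others, while Afp and Ttr were under the floor in 7-4-1. The 8 early mesoderm genes had a median of 0.06 (0.09 without WT ESC B21, 0.14 without 7-4-1, 0.00 without J1 and -0.02 without Dutch), and Mixl1 was lower without overlap (-0.60 ± 0.25). Bmp4 (0.54 ± 0.39), Tbx6 (0.25 ± 0.21) and Foxf1 (0.20 ± 0.20) overlapped. Metabolic and ribosomal genes lay near 0, with medians of -0.13 for 26 genes of glycolysis and hypoxia, 0.02 for 30 of the respiratory chain and 0.00 for 26 ribosomal proteins. With single arrays left out these ran from -0.26 to -0.04, from -0.02 to 0.04 and from -0.01 to 0.01. The glucose transporter Slc2a3 (-0.21 ± 0.07) and the respiratory subunits Ndufa4 (-0.15 ± 0.06) and Ndufa2 (-0.12 ± 0.08) were lower and Cox7c (0.35 ± 0.18) higher without overlap. Of the respiratory chain list, 6.67% were lower and 3.33% higher without overlap, near the 6.93% and 4.94% of all genes.

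Without the array WT ESC B21, the test called 336 genes (2.60% of 12905; limma adjusted p under 0.05), 290 lower (2.25%) and 46 higher (0.356%) in TKO ESC, of which 239 and 31 were at least 2-fold apart. Leaving out any other ESC array gave 0 genes. This fit compares 3 TKO lines with J1 and R1, so that the WT side rests on 2 lines. Named genes of this fit were chosen after their values were seen. The 10 lower genes with the largest log2 differences included 4 interferon-induced GTPases, Gbp2b (-4.01 ± 0.51; adjusted p = 0.0289), Gbp2 (-3.42 ± 0.42), Gbp3 (-3.38 ± 0.51) and Gbp7 (-3.18 ± 0.32). The other 6 were Psmb8, Fgf5, Fndc3c1 (-3.59 ± 0.47), Septin4 (-3.25 ± 0.32), the iron exporter Slc40a1 (-3.24 ± 0.25) and the sulfotransferase Chst15 (-3.19 ± 0.36). Intensities of Gbp2 were 202, 1020.1 and 2625 in WT ESC and 113, 206 and 152 in TKO ESC, with WT ESC B21 inside the TKO range. Of the MHC list, 6 of 17 passed, all lower: Psmb8 (-3.94 ± 0.32), Tap1 (-2.27 ± 0.23), Tap2 (-2.18 ± 0.27), H2-D1 (-1.77 ± 0.27), Tapbp (-1.59 ± 0.27) and B2m (-1.49 ± 0.22). Of the primitive ectoderm list, 5 of 15 passed, all lower: Fgf5 (-3.55 ± 0.27; adjusted p = 0.0111), Cldn6 (-1.73 ± 0.15), the POU factor Pou3f1 (-1.66 ± 0.27), Pim2 (-1.58 ± 0.18) and the de novo methyltransferase Dnmt3b (-0.77 ± 0.15). Dnmt3b intensity was 3476, 8867 and 9872 in WT ESC and 4998, 4878 and 6822 in TKO ESC, so that B21 was below every TKO array.

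Other genes of the 290 were picked from the calls and belong to no list, so that no share is given for them. The desmosome gene Dsp had 565, 2335 and 4118 in WT ESC and 245, 564 and 738 in TKO ESC (log2 difference without B21 -2.73 ± 0.46). The claudins Cldn3 (-1.85 ± 0.26), Cldn7 (-1.63 ± 0.29) and Cldn4 (-0.95 ± 0.16) were also lower in TKO ESC than in J1 and R1. So were the splicing factor Esrp1 (-1.07 ± 0.14), the polarity gene Crb3 (-0.98 ± 0.17) and the adhesion gene Epcam (-0.51 ± 0.09). In log2 intensity, WT ESC B21 was below the TKO mean at Cldn3 (7.432 against 7.491), Cldn4 (9.509 against 10.32), Crb3 (8.395 against 8.611) and Epcam (11.63 against 12.05). It was above that mean at Esrp1 (10.27 against 10.26) and Cldn7 (9.955 against 9.588). Of the immediate early list, 3 of 20 (15%) were called lower, Atf3 (-2.57 ± 0.34), Jun (-2.46 ± 0.31) and Fos (-1.49 ± 0.26). Of the imprinted list, 3 of 33 (9.09%) were, Plagl1 (-2.41 ± 0.33), Nnat (-1.72 ± 0.24) and Gnas (-0.80 ± 0.13). Of the fibroblast list, 3 of 27 (11.1%) were, Ccn1 (-1.96 ± 0.35), Cald1 (-1.58 ± 0.29) and Ccn2 (-1.25 ± 0.20). The share of all genes called lower was 2.25%. At each of these list genes WT ESC B21 lay nearer the TKO mean than the mean of J1 and R1. It was below the TKO mean at Fos, Nnat, Gnas, Ccn1 and Ccn2. The mean log2 intensity of the fibroblast list was 8.82 in J1, 9.26 in R1, 8.16 in B21 and 7.82 to 8.37 in TKO ESC, and its part in these calls was not tested.

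Of the pluripotency list, 2 of 32 (6.25%) were among the 46 higher genes, Klf4 and Zfp42, and 0 among the lower ones. Of the signalling list, 4 of 26 (15.4%) rose and 2 (7.69%) fell, where 0.356% of all genes tested were called higher and 2.25% lower. Socs3, the feedback inhibitor of LIF and Stat3 signalling, had 4917, 1372 and 2006.5 in WT ESC and 4917.5, 5626 and 4840.2 in TKO ESC (1.62 ± 0.17; adjusted p = 0.021). Klf4, a Stat3 target and pluripotency factor, had 5986, 2527 and 1686 in WT ESC and 4282, 4507 and 4254 in TKO ESC (1.07 ± 0.17). At both genes B21 was at or above the TKO level. Zfp42 (Rex1), a marker of naive ESC, had 16141, 12232 and 10309 in WT ESC and 15800, 15711 and 15582 in TKO ESC (0.48 ± 0.07). Spry4 (1.89 ± 0.34), Etv4 (1.71 ± 0.26) and Lifr (0.91 ± 0.17) were the other signalling genes that rose, while Id2 (-1.58 ± 0.31) and Spry1 (-1.06 ± 0.17) fell. Of 30 germline genes, 3 (10%) were called higher and 0 lower: Piwil2 (1.60 ± 0.27), Tex11 (1.53 ± 0.30) and Hormad1 (1.19 ± 0.22). In log2 intensity, WT ESC B21 was above the TKO mean at Piwil2 (9.754 against 9.359), Tex11 (8.433 against 7.788) and Hormad1 (9.188 against 9.097). The largest difference among the 46 higher genes was at Khdc3, a maternal-effect gene of oocytes and ESC, with 1915, 271 and 239.8 in WT ESC and 1757.5, 2154 and 1541 in TKO ESC (2.82 ± 0.19; adjusted p = 0.0111). Members called among the 58 E2F targets, 44 G2/M genes, 10 E2F and DP factors and 7 CDK inhibitors numbered 0.

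The position of the array left out describes these calls but is no independent reading of them. With B21 in the fit 0 genes passed. Genes called only without it therefore tend, by selection, to be those where B21 lay away from J1 and R1. On a scale where 0 is the mean of TKO ESC and 1 the mean of J1 and R1, WT ESC B21 had a median position of -0.04 at the 290 lower genes and of 0.18 at the 46 higher genes. It lay nearer the TKO mean at 278 of the 290 and at 39 of the 46. It lay inside the range of the 3 TKO arrays at 118 and 12 of them, and at or beyond the level of J1 and R1 at 3 and 3. Hmces (1.02) and Zdbf2 (2.02) were among the few higher genes at which B21 lay with the WT arrays or beyond them, and the interferon-induced sensor Ddx58 (1.03) was another. Of the 336 genes, 98 still had no overlap when B21 was counted. Most of the genes called thus separate J1 and R1 from the other 4 lines, 1 of which is WT.

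**Figure D4:**
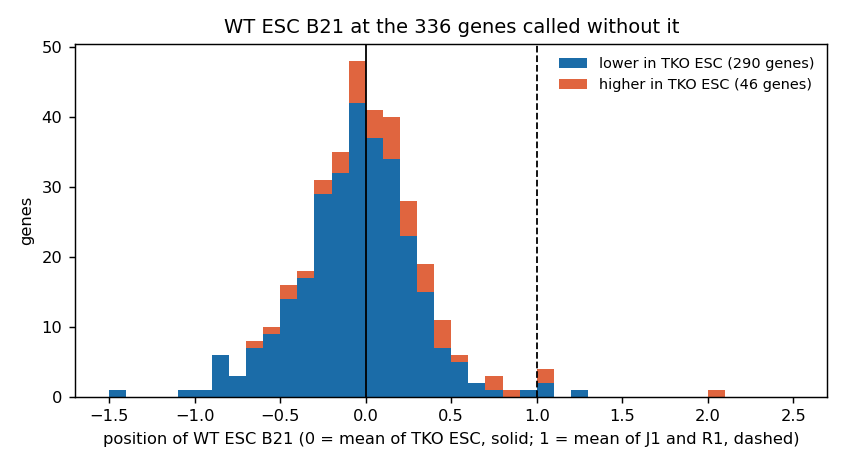
Number of genes by the position of WT ESC B21 between the mean of TKO ESC (0, solid line) and the mean of WT ESC J1 and R1 (1, dashed line), for the 336 genes called without B21, lower genes in blue and higher genes in orange. Most genes lie near 0, with medians of -0.04 and 0.18.

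Levels over whole chromosomes differed between lines of both genotypes. The deviation of each array from the mean of the 6, as a median over the genes of a chromosome, was 0.23 in WT ESC B21 and 0.21 in TKO ESC 7-4-1 on chromosome 1, and -0.17 to -0.07 in the other 4 arrays. On chromosome 11 it was 0.14, 0.11 and 0.15 in B21, 7-4-1 and Dutch, and -0.22 to -0.05 in J1, R1 and Ta1-12. On chromosome 8 it was -0.07 in J1 and -0.13 in R1, and 0.02 to 0.07 in the others, so that here B21 lay with the TKO lines. The X chromosome had 0.11 in both J1 and R1 and -0.125 in TKO ESC 7-4-1. The other 16 autosomes stayed between -0.08 and 0.08. Of the 46 higher genes called without B21, 7 (15.2%) were on chromosome 8, which held 5.42% of genes tested. With chromosome medians subtracted, the test on all 6 arrays again called 0 genes.

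**Figure D5:**
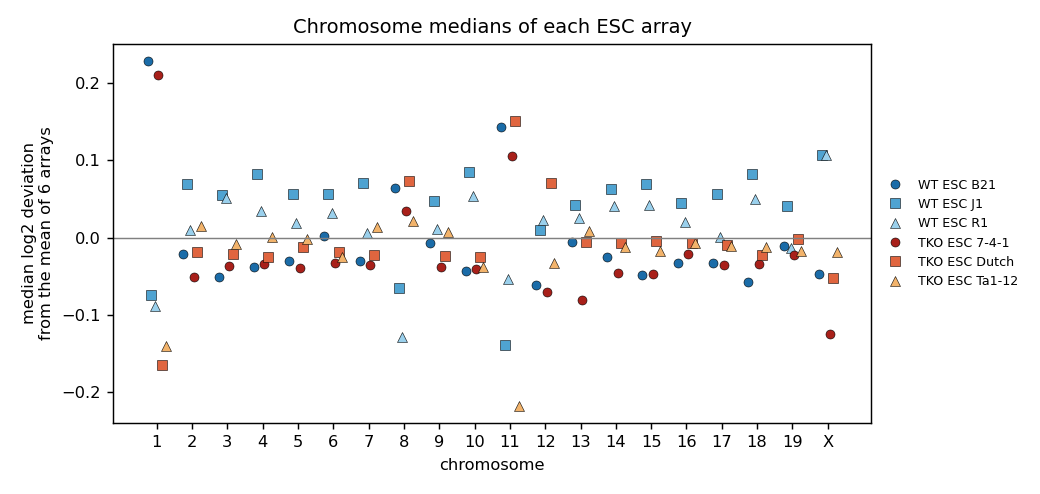
Median log2 deviation from the mean of the 6 ESC arrays over the genes of each chromosome, 1 point per array. Chromosomes 1, 8 and 11 hold arrays that stand off from the others, in both genotypes, while the other autosomes lie between -0.08 and 0.08.

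Single lines stood apart from all others at some genes. In TKO ESC 7-4-1 the gap to the nearest other array reached 6.06 on the log2 scale, at Meg3. The largest difference between group means, a different measure, was -2.94, at Psmb8. Among the named genes of the other lines the widest gap was 2.59, at Scml2 in WT ESC B21. TKO ESC 7-4-1 lay at least 4-fold below all 5 other ESC arrays at 12 genes and above them at 9. Among the former was Meg3, the maternally expressed noncoding RNA of the Dlk1-Dio3 imprinted domain, with 66.4 against 4443.6 to 6936.8 in the others. Rian (16.4 against 504.2 to 896.0) and Mirg (42.2 against 267.2 to 714.7) of the same domain were low in the same array. The monoamine oxidase gene Maoa was at 33.5 against 1795.2 to 2451, and in EB of this line it was at 14.7 against 835.3 to 1988. Olig1 (1980.2 against 36.8 to 76.5), Apoa2 (1031.3 against 33.6 to 77.2) and the endoderm factor Sox17 (313.1 against 37.0 to 66.7) were high in 7-4-1. The Y-linked gene Eif2s3y was at 8.23 in 7-4-1 and between 963.4 and 3234.7 in the others. WT ESC B21 lay above the others at 7 genes, among them the X-linked Scml2 (1217.7 against 118.4 to 201.9) and Rhox13 (2868.9 against 244.3 to 516.1). R1 did so at 2, Dutch lay below at 1, the methyltransferase Eef1akmt2 (120.0 against 619.5 to 700.3), and J1 and Ta1-12 had 0 such genes.

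The genes without overlap in ESC were also read in EB, from the same lines and 2 further TKO lines. Of the 97 lower genes, 77 lay below 0 in TKO EB against WT EB, and of the 29 higher genes, 16 lay above 0, where 42.6% of all genes lay above 0. In the 2 TKO lines measured only as EB, 80 of the 97 lay below 0 against WT EB, against 60.7% of all genes, and 16 of the 29 above 0, against 38.7%. The test of TKO EB against WT EB called 0 genes (0.00%), as did the test of the difference between the stages, where 476 genes (3.69%) had an unadjusted p under 0.05. No named gene had an adjusted p below 0.981 for that difference. The E2F targets, with a median of 0.08 in ESC, had 0.94 in EB, where all 58 lay above 0, and the G2/M genes had 1.02 with all 44 above 0. That these lists differ between stages was not tested as a list. WT EB had the ESC gene Pou5f1 at 55.2 or less. Among TKO EB, Ta1-12 had 17.1, 7-4-1 had 146.8, and Dutch, 14-14-4 and 2-55-2 had 7410.3, 6132.8 and 1542.2, below every ESC array but far above WT EB. The lines measured only as EB, 14-14-4 and 2-55-2, are among these 3, and the part of this remaining signal in the EB values was not tested.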

How the data were processed

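Per the labels' protocols, RNA isolated with Trizol was biotin-labelled by the manufacturer's method for Affymetrix arrays. The deposited values are linear intensity values that the authors had summarised per probe set. Background correction, scaling and summarisation are not given in the sources used here.

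Values under 32 were raised to 32 before log2, so that folds of dim genes are understated. Of 45101 probe sets, 34958 had a single symbol in the platform annotation, 932 several and 9211 none. Of the symbols, 34754 matched the RefSeq table of GRCm38.p6 and 0 changed. Each of 18194 genes was represented by its brightest probe set (highest mean log2 in ESC), and the 12905 that exceeded the 40th percentile of an array in 3 or more of the 6 were tested. Groups came from the sample titles. TKO ESC and WT ESC were compared with limma 3.58.1 in R 4.3.3 (lmFit, eBayes with trend) on the 6 ESC arrays, with Benjamini-Hochberg adjustment over all genes and a threshold of 0.05. Errors are standard errors of the fit. "Without overlap" means that all 3 arrays of a group lie on 1 side of all 3 of the other. An exact permutation test of 3 against 3 arrays cannot go below p = 0.1 and was not used. The script was tested on simulated data.

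The members, gene lists, tests and alternatives were chosen with earlier results of these data known. Named genes were the 12 per direction with the smallest unadjusted p among those without overlap and at least 2-fold apart (clone names and sex-linked genes left out), up to 4 per list by the smallest p, and Rb1, Rbl1, Rbl2, Pou5f1, Nanog and Sox2. Others were added for their role or for their place in the fit without B21. Alternatives changed the floor, filter, scaling, probe set rule, fit and arrays. The number of arrays limits the precision, and p-values measure the spread between lines.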

Additional observations from a re-analysis of the deposited data

Results flagged for a closer look

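Of 27 genes (the 24 leading genes and Rb1, Rbl1 and Rbl2) read in the 5 TKO EB arrays, 2 had 1 array far from the other 4. Gbx2 was at 66.9 in TKO EB 7-4-1 and between 7.77 and 27.3 in the others, which all lay under the floor. Pirt was at 41.9 in TKO EB 2-55-2 and between 20.3 and 34.1 in the others, which lay under the floor except 14-14-4. Both genes were dim in EB. Values raised to the floor are tied, so both flags depend on the floor. The usual rate of about 1 in 20 groups marked by chance does not hold for tied values.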

How the results depend on the processing

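The test called 0 genes under every alternative except 2: with array weights it called 1, Tnfrsf19, and without WT ESC B21 it called 336, so that leaving out single arrays gave 0 to 336. Genes without overlap and at least 2-fold apart numbered 25 to 120 higher and 75 to 524 lower when single arrays were left out (52 higher without TKO ESC 7-4-1, 172 lower without Dutch, 153 lower without Ta1-12), and 40 lower with the 60th percentile as filter. Fewer arrays make separation easier by construction. The share of genes above 0 was 50.4% with arrays centred on their median, 50.7% without a filter and 44.4% in the main setting.

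List medians moved beyond the spread between arrays for G2/M genes (0.0399) and DNA methylation (0.0537) with probe sets averaged, cardiac and smooth muscle with the 60th percentile (-0.53), ribosomal proteins with chromosome medians subtracted (0.0407), and E2F and DP factors without genes of chromosomes 1, 8 and 11 (-0.0475), an alternative chosen after seeing the data. With single arrays left out, primitive ectoderm ranged from -0.63 to -0.14 and neural progenitors from -0.0479 to 0.17. Nanog changed sign with arrays centred (0.0042), array weights (0.0608), chromosome medians subtracted (0.0304), and without B21 (0.185) or Ta1-12 (0.0277), and Rb1 (0.45) and Foxf1 (-0.00359) with array weights and Foxm1 (0.00422) without R1. The cause of these changes was not tested. Of the other values of single genes, 2328 kept their direction and side of the threshold and 29 newly passed it, 28 of them without B21. No paired analysis was possible because the lines of TKO ESC and WT ESC are different and carry no shared number.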
